A study of Homo sapiens with 4 samples.

Results

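The SR and hnRNP splicing factors are RNA-binding proteins that decide which exons a cell keeps in its messenger RNAs. Their genes were followed through 4 poly(A) RNA-seq libraries of IMR90, a human lung fibroblast line. Members were all loci with a symbol that starts with SRSF or HNRNP, together with SYNCRIP, TRA2A, TRA2B, PTBP1, PTBP2, PCBP1 and PCBP2. That gave 44 of 26468 loci, which are 42 genes or joined names once the lines of HNRNPH1 and of SRSF10 are summed.

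Each group was a single library of cells at passage 16. Growing cells carried the empty retroviral vector pBabe and were taken at day 13. Cells in oncogene-induced senescence (OIS) carried the fusion ER:RasV12, an H-RasV12 protein that tamoxifen switches on, and received 10 nM tamoxifen for 8 days. The other groups received a retrovirus for Flag-tagged cleaved histone H3.3 (H3.3cs1) and were taken at day 3 (early) or day 13 (late) after infection. All cells thus carried a retroviral construct. Growing and late cells share day 13 and passage 16, with no tamoxifen listed, and differ by label in the construct. No empty-vector library of day 3 and no tamoxifen-only library was analysed here. In the comparisons that involve early or OIS, the construct, tamoxifen, recent infection and time in culture thus cannot all be told apart. With 1 library per group there is no test and no error, and every difference compares libraries rather than conditions.

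Levels are in FPKM, which scales fragments to transcript length and library size, so that they can be set side by side between genes. Day 3 and day 13 below stand for H3.3cs1 early and late. Differences are of log2(FPKM + 1), and folds are on that scale. A gene is said to have fallen or risen when its difference was at least 2-fold, and a count at 1.5-fold is given beside it because many differences lay between these sizes. The comparison covered the 12183 genes with an FPKM of 1 or more somewhere among the 4 libraries, and 38 of the 42 members were among them. SRSF12 (0.116 to 0.256 FPKM) and the pseudogene HNRNPA3P1 stayed below that level, and HNRNPCL1 and the pseudogene HNRNPKP3 were listed at 0 in every library. Of the 38, 37 reached an FPKM of 1 in all 4 libraries, so the filter let them in through each group.

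SR proteins bind exonic enhancer sequences through RNA recognition motifs and recruit the spliceosome through a domain rich in arginine and serine. The TRA2 proteins have the same kind of domain and act in a like manner on purine-rich exons. The hnRNP proteins coat nascent transcripts, and many of them, like the polypyrimidine tract binding protein PTBP1, silence exons, so the balance between an SR protein and an hnRNP protein can set the outcome at a splice site. Many of these genes control their own level by splicing a poison exon into their transcripts, which sends them to nonsense-mediated decay (NMD).

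HRAS stood at 3153 FPKM in OIS and at 41.9 to 49.8 in the other libraries, which matches the label of the RAS group. Of the genes for H3.3, H3F3B was higher in the H3.3cs1 libraries (229 FPKM at day 3 and 449.7 at day 13) than in growing (105) and OIS (90.5), whereas H3F3A was lower there (130 and 132, against 190.5 and 236). Which of these genes the construct carries is not stated in the labels. Fibroblast markers (8 of 8 above an FPKM of 1) summed to 10777 FPKM in growing cells, 6158 at day 3, 11304 at day 13 and 4987 in OIS, so they moved between the groups. Single markers did not all follow the sum. In OIS 7 lay below growing and 1, PDGFRA, above it (52.3 against 27.3 FPKM), and in late 5 lay above and 3 below. Epithelial markers (3 of 7 above an FPKM of 1, all keratins) summed to 18.5 to 184 FPKM, with NKX2-1 listed at 0 in every library. Endothelial markers (2 of 6, TIE1 and CLDN5) summed to 16.0 FPKM in OIS and to at most 0.973 elsewhere, with CDH5 at 0 throughout. Of 6 leukocyte markers only CD68, a lysosomal protein, passed an FPKM of 1. Its locus is joined with MPDU1, so the value cannot be read as CD68 alone. PTPRC, the pan-leukocyte marker CD45, reached at most 0.0396 FPKM. The part of these shifts in the results below was not tested. Depth relative to growing, read roughly from the lowest values, was 84.5% for OIS, 96.2% for early and 77.0% for late.

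The stretches of 250 bases before the gene start are shown for 4 members on which the results turn, picked after their values were seen: SRSF3 and TRA2B, which fell in OIS and in late, HNRNPM, with the deepest fall of any member in OIS, and SRSF5, the only member that rose. They are RefSeq sequences of GRCh38.p14, a later build than the hg19 of the submitters' processing notes, and each is written 5′ to 3′ on the gene's strand with matched motifs in capitals.
SRSF3, chr6:36594112-36594361, forward strand: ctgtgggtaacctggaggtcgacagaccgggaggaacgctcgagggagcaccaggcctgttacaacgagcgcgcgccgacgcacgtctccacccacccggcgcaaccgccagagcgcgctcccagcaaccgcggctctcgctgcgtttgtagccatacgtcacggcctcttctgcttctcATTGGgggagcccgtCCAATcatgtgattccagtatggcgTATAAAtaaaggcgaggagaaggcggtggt
TRA2B, chr3:185938015-185938264, reverse strand: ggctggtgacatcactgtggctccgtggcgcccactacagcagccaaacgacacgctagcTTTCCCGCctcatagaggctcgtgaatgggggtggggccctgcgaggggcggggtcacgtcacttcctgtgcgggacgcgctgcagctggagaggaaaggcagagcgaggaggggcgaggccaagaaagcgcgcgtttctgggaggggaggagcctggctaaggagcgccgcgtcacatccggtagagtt
HNRNPM, chr19:8444725-8444974, forward strand: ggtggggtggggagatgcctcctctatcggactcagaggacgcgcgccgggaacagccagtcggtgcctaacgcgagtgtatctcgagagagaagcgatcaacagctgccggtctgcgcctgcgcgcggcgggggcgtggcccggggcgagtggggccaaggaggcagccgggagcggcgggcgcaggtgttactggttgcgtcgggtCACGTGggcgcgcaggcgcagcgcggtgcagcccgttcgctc
SRSF5, chr14:69766892-69767141, forward strand: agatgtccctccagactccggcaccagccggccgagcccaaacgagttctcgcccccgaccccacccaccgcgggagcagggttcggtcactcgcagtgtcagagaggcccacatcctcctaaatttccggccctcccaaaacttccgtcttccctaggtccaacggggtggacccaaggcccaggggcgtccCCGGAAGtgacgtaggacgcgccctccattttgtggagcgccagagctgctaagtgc

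In the capitals of SRSF3, the letters ATTGG and CCAAT are the CCAAT box on either strand (70 and 55 bases before the start) and TATAAA is the TATA box (30 bases before). The E2F motif of TRA2B begins 190 bases before the start, the E-box of HNRNPM 42 bases before and the ETS motif of SRSF5 57 bases before. Promoters of 34 members were at hand, as 300 bases from 250 before to 50 after the start, and both strands were searched. The E-box CACGTG was in 7 of them (20.6%), against 10.2% of 9355 promoters of compared genes and 7.43% of all 27305. CCAAT was in 15 (44.1%, against 36.7% and 35.7%), TATAAA in 5 (14.7%, against 5.64% and 12.0%) and the ETS motif CCGGAAG in 6 (17.6%, against 19.5% and 10.7%). The E2F motif, TTTCCCGC or TTTGGCGC, was in 2 (5.88%, against 3.73% and 2.31%), SRSF10 and TRA2B, and the CRE TGACGTCA was in none (against 3.34% and 1.98%). None of these motifs contains another, and a match describes letters only.

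Most splicing factor genes lay below the growing level in each of the 3 comparisons with it. Of the 38 members 32 did so in OIS, 35 in H3.3cs1 late and 36 in H3.3cs1 early, where 47.8%, 53.8% and 52.7% of all compared genes did. Over 4 other pseudocount and scaling choices these counts were 32 to 36, 34 to 35 and 32 to 36. The shares of all compared genes were then 47.8% to 61.0%, 47.8% to 53.8% and 29.9% to 52.7%. In OIS 13 of the 38 members fell and 1 rose, where 8.17% of all compared genes fell and 9.13% rose. The fallen included the SR genes SRSF1, SRSF2, SRSF3 and SRSF6, TRA2A and TRA2B, and the hnRNP genes HNRNPA1, HNRNPA2B1, HNRNPH1, HNRNPH3 and HNRNPM. The joined AXL,HNRNPUL1 locus and the pseudogene HNRNPA1P33, listed at 0 in OIS, were the others. In H3.3cs1 late 6 members fell and 0 rose, against 5.47% and 3.51% of compared genes, and in H3.3cs1 early 4 fell and 0 rose, against 3.96% and 1.40%.

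At 1.5-fold, 22 members were lower in OIS (17.3% of compared genes were), 19 in late (12.7%) and 22 in early (10.5%), while 1 member was that much higher in OIS (18.8%), 0 in late (10.1%) and 0 in early (5.70%). The median difference of the members was -0.75 in OIS, -0.59 in late and -0.62 in early, beside medians of 0.032, -0.040 and -0.025 over all compared genes. By class, the 13 SR and TRA2 genes had medians of -0.73 in OIS, -0.23 in late and -0.72 in early, and the 25 hnRNP, PTB and PCBP genes -0.77, -0.71 and -0.61. In late the SR class thus lay nearest to growing, with 10 of its 13 genes below it, where all 25 of the other class were. These 3 comparisons share the growing library. Rescaling the named genes to the same sum moved the median of all genes to -0.16 in OIS and 0.19 in early, and the members' medians to -0.95 and -0.37. Under that scaling and under quantile normalization no member was 2-fold lower in early, so the 4 falls there rest on the scaling.

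**Figure D1:**
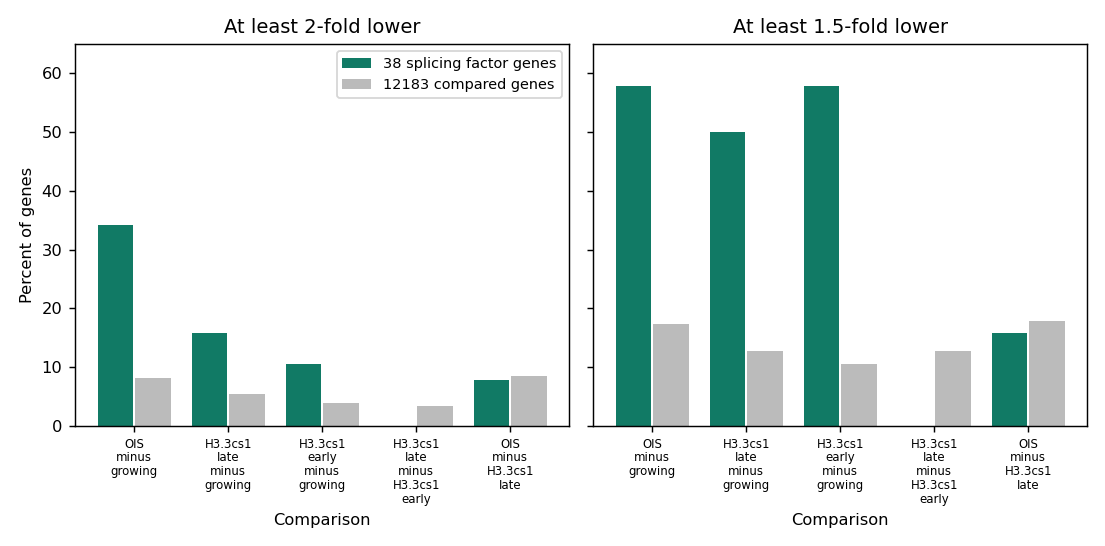
Percent of the 38 splicing factor genes (green) and of the 12183 compared genes (grey) that were at least 2-fold (left) or 1.5-fold (right) lower in the first library of each comparison. The green bars stand above the grey ones in the 3 comparisons with growing, with 34.2% against 8.17% for 2-fold falls in OIS, and not in the last 2 comparisons.

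**Figure D2:**
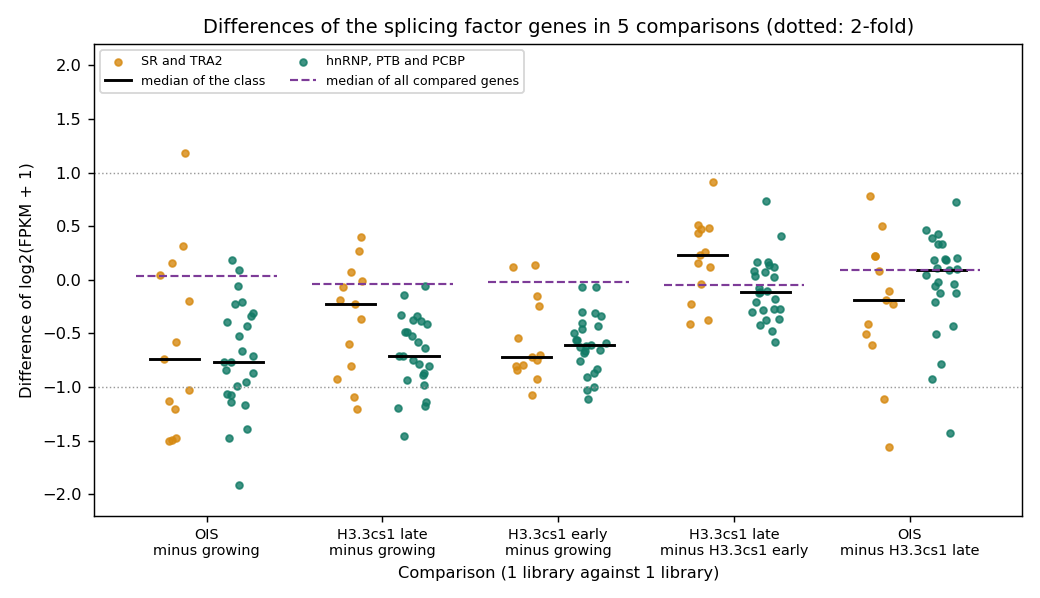
Difference of log2(FPKM + 1) for each splicing factor gene in 5 comparisons of 1 library with 1 library, for SR and TRA2 genes (orange, 13) and hnRNP, PTB and PCBP genes (green, 25), with class medians as black bars and the median of all compared genes as a dashed line. In the 3 comparisons with growing the medians of both classes lie below that line, and the lone point above the upper dotted 2-fold line is SRSF5 in OIS.

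The summed level of all members was 3839 FPKM in growing cells, 2436 at day 3, 2425 at day 13 and 2499 in OIS. As a share of the FPKM of named loci that was 0.875%, 0.664%, 0.556% and 0.483% in that order. The sum thus lay highest in growing on either measure, while the order of the other libraries changed with the denominator. In bulk RNA, fewer cells that express a gene and less RNA per cell cannot be told apart.

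Among the SR proteins, 4 of 11 compared genes fell in OIS, 1 in late and 1 in early, and SRSF5 rose in OIS. Of all compared genes 8.17% fell in OIS, 5.47% in late and 3.96% in early, and 9.13% rose in OIS. SRSF1, the founding SR protein and a known proto-oncogene, was at 58.4 FPKM in growing cells, 35.5 at day 3, 30.3 at day 13 and 28.0 in OIS. It fell 2.05-fold in OIS and was 1.90-fold lower in late. SRSF3, the smallest SR protein and a link between splicing and mRNA export, stood at 64.1 FPKM in growing cells, 38.5 at day 3, 29.5 at day 13 and 22.0 in OIS. Its falls were 2.84-fold in OIS and 2.13-fold in late, and the growing value lay well above the 3 others.

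SRSF7, a close relative of SRSF3 with a zinc knuckle, did not reach 2-fold in any library, with 30.0 FPKM in growing cells, 15.3 at day 3, 16.7 at day 13 and 19.7 in OIS. SRSF2, which also acts in transcription elongation and shares its locus with MIR636, was at 93.2 FPKM in growing cells, 43.7 at day 3, 61.4 at day 13 and 39.98 in OIS. It fell 2.30-fold in OIS and 2.11-fold in early, and in late it lay between these libraries and growing. SRSF6, an SR protein with a pair of RNA recognition motifs, was at 63.3 FPKM in growing cells, 34.8 at day 3, 66.6 at day 13 and 21.9 in OIS. SRSF6 fell 2.81-fold in OIS, and its late value was 1.05-fold above growing.

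SRSF5 went the other way, with 71.7 FPKM in growing cells, 78.8 at day 3, 94.8 at day 13 and 164 in OIS. Its rise in OIS was 2.26-fold, or 0.94 on the log2 scale (under 2-fold) with named genes at the same sum. SRSF9, a short SR protein, was at 109 FPKM in growing cells, 98.3 at day 3, 95.9 at day 13 and 136 in OIS, so that it too was highest in OIS but within 1.5-fold. SRSF4, the longest classical SR protein, was at 33.4, 22.6, 31.9 and 37.3 FPKM in growing, day 3, day 13 and OIS, lowest in early.

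SRSF10, which acts as a repressor once dephosphorylated in heat shock and mitosis, was at 41.4 FPKM in growing cells, 24.3 at day 3, 35.2 at day 13 and 24.5 in OIS, and its other line was at 0. SRSF11 varied little, from 40.2 to 47.8 FPKM. SRSF8, a retrogene derived from SRSF2, ranged from 3.43 in growing to 4.35 in late. Neither SRSF11 nor SRSF8 was 1.5-fold from growing in any library.

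Of the TRA2 genes, TRA2A was at 48.4 FPKM in growing cells, 27.3 at day 3, 37.3 at day 13 and 16.7 in OIS, and TRA2B at 29.9, 16.8, 12.4 and 13.1. Both fell in OIS, TRA2A by 2.78-fold and TRA2B by 2.19-fold. In late only TRA2B fell, by 2.31-fold, with TRA2A at 1.29-fold below growing. In these values OIS was lowest for TRA2A and late for TRA2B, though OIS and late differed by only 1.06-fold for TRA2B. With named genes at the same sum OIS was the lower for TRA2B, at -1.35 against -1.20 in log2 difference from growing.

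**Figure D3:**
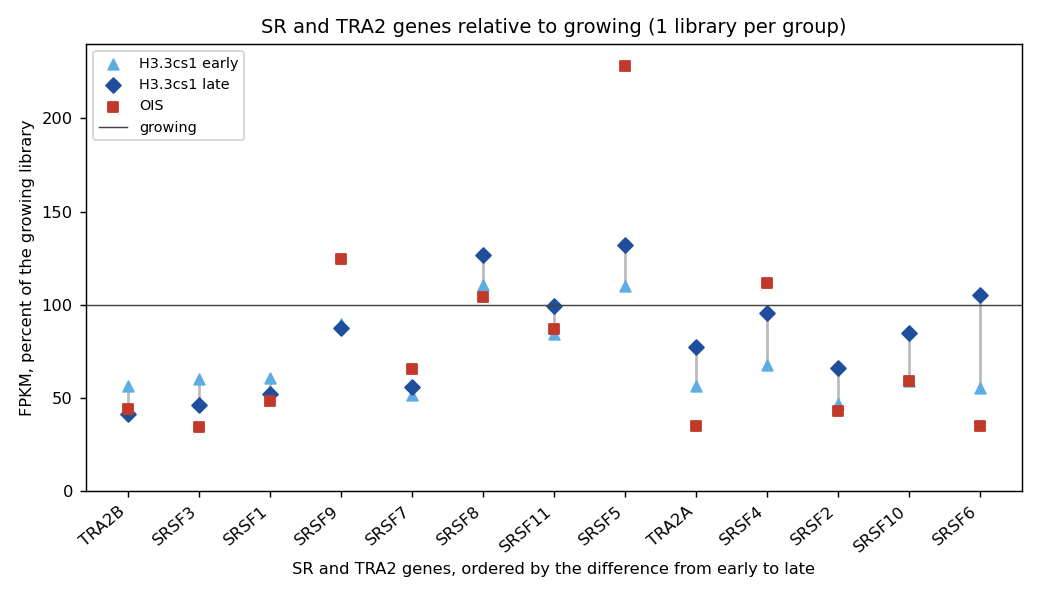
FPKM of 13 SR and TRA2 genes in OIS (squares), H3.3cs1 early (triangles) and H3.3cs1 late (diamonds) as a percent of the growing library (line at 100), 1 library per group, with a grey bar from early to late. SRSF5 stands at 228% in OIS, while SRSF3, SRSF6 and TRA2A stand at 34.2%, 34.5% and 34.6%, and the late diamond of SRSF6 lies at 105%.

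The hnRNP A/B and D family, which packages nascent RNA and often silences exons, had 2 of 7 compared members lower by 2-fold in OIS, 4 in late and 1 in early, with median differences of -0.95, -1.14 and -0.83. Of all compared genes 8.17%, 5.47% and 3.96% fell in that order, with medians of 0.032, -0.040 and -0.025. HNRNPA1, the classical opponent of SRSF1 at splice sites, is joined with its pseudogene HNRNPA1P10 and was the highest member, at 417 FPKM in growing cells, 203 at day 3, 151 at day 13 and 199 in OIS. Its locus fell 2.09-fold in OIS, 2.05-fold in early and 2.74-fold in late. HNRNPA2B1, which also takes part in RNA transport, was at 227 FPKM in growing cells, 121 at day 3, 99.7 at day 13 and 107 in OIS. It fell 2.11-fold in OIS and 2.26-fold in late.

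HNRNPD, known as AUF1 for its binding to AU-rich elements that mark mRNAs for decay, was at 94.0 FPKM in growing cells, 52.4 at day 3, 40.3 at day 13 and 51.1 in OIS, and fell 2.30-fold in late. HNRNPA3, joined with MIR4444-1, was at 64.1, 43.1, 28.5 and 32.6 FPKM in this order and fell 2.204-fold in late. HNRNPA0 was at 68.1 FPKM in growing cells, 39.9 at day 3, 36.7 at day 13 and 33.7 in OIS. It missed the mark in OIS at 1.99-fold, and passed it with a pseudocount of 0.1 and under each of the 3 rescalings.

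HNRNPAB was at 111 FPKM in growing and at 60.4 to 65.9 in the other libraries. HNRNPA1L2, a retrogene of HNRNPA1, lay between 2.34 and 3.71 FPKM. The pseudogene HNRNPA1P33 was at 1.79 FPKM in growing, 1.03 in early and 1.69 in late and listed at 0 in OIS, so no fold is given. How fragments were divided among HNRNPA1 and its near-identical copies is not stated, and these values are uncertain.

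HNRNPM, a regulator of exons in epithelial and mesenchymal cells, had the deepest fall of all members in OIS. It was at 131 FPKM in growing cells, 85.6 at day 3, 65.9 at day 13 and 34.1 in OIS. The OIS value was 3.76-fold lower than growing, and the late value 1.98-fold lower. HNRNPM in late passed 2-fold under quantile normalization (-1.02 on the log2 scale).

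In the F/H family, whose members bind runs of guanines, HNRNPH1 summed to 236 FPKM in growing cells, 108 at day 3, 181 at day 13 and 105 in OIS. It fell 2.25-fold in OIS and 2.17-fold in early. HNRNPH1 has 2 lines, 1 at 167, 75.0, 106 and 64.6 FPKM and the other at 69.2, 33.5, 74.8 and 39.97 in growing, day 3, day 13 and OIS. The weaker line was highest in late and the stronger in growing, so the sum hides lines of unlike order.

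HNRNPH3 was at 72.3 FPKM in growing cells, 35.6 at day 3, 37.3 at day 13 and 32.3 in OIS, a fall of 2.199-fold in OIS and of 2.004-fold in early. HNRNPF was at 53.8, 43.3, 30.9 and 43.1 FPKM in that order and fell short of 2-fold. The locus of HNRNPH2 is joined with RPL36A, a ribosomal protein gene, and its 114 to 189 FPKM cannot be read as HNRNPH2.

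HNRNPK and the PCBP proteins, which bind runs of cytosines, stayed within 2-fold of growing. HNRNPK was the second highest member by mean, at 227 FPKM in growing cells, 144 at day 3, 162 at day 13 and 172 in OIS. PCBP1, an intronless gene, ranged from 140 to 189 FPKM and PCBP2 from 95.1 to 127. For these 3 genes growing was the highest library, and the differences lay between 1.15-fold and 1.57-fold.

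HNRNPL, which binds CA repeats, was at 179 FPKM in growing and at 109 to 119 in the others. PTBP1 was at 107 FPKM in growing cells, 72.2 at day 3, 73.8 at day 13 and 84.3 in OIS, within 1.5-fold of growing. Its neuronal paralog PTBP2, which PTBP1 represses in non-neuronal cells, was low throughout, at 4.55 FPKM in growing cells, 4.30 at day 3, 3.39 at day 13 and 2.26 in OIS. PTBP2 was 1.70-fold lower in OIS, and the others of this family were at most 1.63-fold from growing.

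HNRNPC, which shields transcripts from the exonization of Alu repeats and is joined with LINC00641, was at 134 FPKM in growing cells, 86.7 at day 3, 95.3 at day 13 and 129 in OIS. Its OIS value lay within 1.04-fold of growing. HNRNPR was at 62.0, 39.9, 35.0 and 34.2 FPKM and SYNCRIP, also called hnRNP Q, at 70.8, 52.1, 42.8 and 49.0 in growing, day 3, day 13 and OIS. HNRNPU, a scaffold protein of the nucleus that is joined with its antisense gene, was at 71.7, 47.4, 43.5 and 44.8 FPKM in that order. These last 3 were highest in growing by 1.35-fold to 1.79-fold.

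The loci of the HNRNPU-like genes hold other coding genes. AXL,HNRNPUL1 was at 260 FPKM in growing cells, 162 at day 3, 140 at day 13 and 98.4 in OIS, and includes the receptor kinase AXL. The locus of HNRNPUL2 with BSCL2, the seipin gene, was at 49.6 to 62.6 FPKM. Neither value can be read as that of the hnRNP gene alone.

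**Figure D4:**
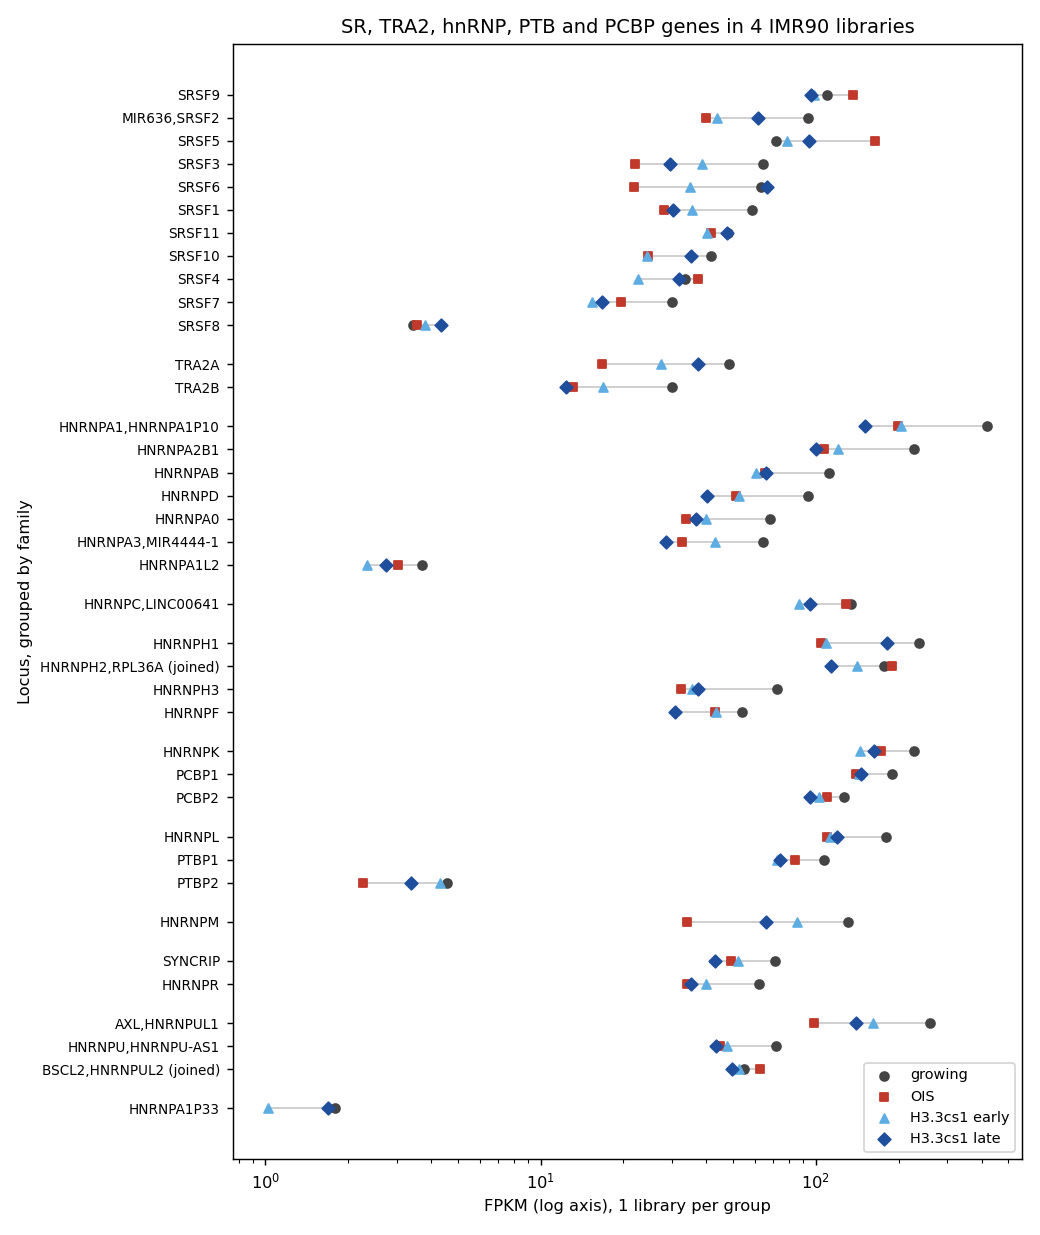
FPKM on a log axis of the 38 compared loci in growing (circles), OIS (squares), H3.3cs1 early (triangles) and H3.3cs1 late (diamonds), grouped by family, with a line over the range. Circles lie rightmost for most loci, such as HNRNPA1 at 417 FPKM, while SRSF5 has its OIS square rightmost at 164 FPKM. The value of 0 of HNRNPA1P33 in OIS is not drawn.

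From day 3 to day 13 of H3.3cs1 no member changed by 2-fold, where 5.47% of compared genes rose and 3.40% fell. At 1.5-fold 2 members were higher in late, SRSF6 (1.89-fold) and HNRNPH1 (1.66-fold), and 0 were lower (12.9% and 12.7% of compared genes). The difference of HNRNPH1 was under 1.5-fold in its stronger line alone (75.0 to 106 FPKM), with named genes at the same sum and under quantile normalization. The class medians lay apart. The median difference of the 13 SR and TRA2 genes was 0.23, with 9 above 0 (45.8% of compared genes were), and that of the 25 hnRNP, PTB and PCBP genes was -0.12, with 10 above 0. The median over all compared genes was -0.044. With named genes at the same sum these 3 medians became -0.012, -0.36 and -0.26 in that order. The sign of the SR class median thus turned with the scaling. With either scaling it lay above the median of all compared genes, and the gap between the classes was 0.35. Within the SR class SRSF2, SRSF4, SRSF6, SRSF10 and TRA2A were at least 1.35-fold higher in late than in early, and SRSF1, SRSF3 and TRA2B were 1.17-fold to 1.33-fold lower.

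OIS and H3.3cs1 late differed in single members rather than in the members' median, which was 0.012 beside 0.092 over all compared genes. SRSF6 was 2.96-fold lower in OIS (21.9 against 66.6 FPKM) and TRA2A 2.16-fold lower (16.7 against 37.3), and the third 2-fold difference was the pseudogene HNRNPA1P33. In all 3 of the 38 members were 2-fold lower and 0 higher, against 8.51% and 11.2% of compared genes, so the share of members was not above that of all genes. At 1.5-fold 6 members were lower in OIS (17.8% of compared genes), with HNRNPM (1.90-fold), HNRNPH1 (1.72-fold) and SRSF2 (1.52-fold) next, and 2 were higher (23.0%), SRSF5 (1.72-fold) and the joined HNRNPH2 locus. The class medians were -0.18 for SR and TRA2 genes and 0.090 for the hnRNP, PTB and PCBP genes. The latter was close to the 0.092 of all compared genes. After rescaling to the same sum the median of the members was -0.23, beside -0.11 over all compared genes, and 5 members were 2-fold lower. The sign of the members' median thus depended on the scaling, while it lay below the median of all compared genes with either.

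Ratios between members within a library do not depend on a common scaling factor between libraries, and several known pairs were compared, chosen after the values were seen. The ratio of HNRNPA1 to SRSF1, the classical antagonists at 5′ splice sites, was 7.14 in growing, 5.72 in early, 4.998 in late and 7.09 in OIS. Growing and OIS thus had nearly the same ratio although both genes fell in OIS. The ratio of SRSF5 to SRSF3 was 1.12 in growing, 2.05 in early, 3.21 in late and 7.45 in OIS, the widest shift of the pairs computed together with that of SRSF5 to SRSF6 (1.13, 2.26, 1.42 and 7.49 in that order).

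TRA2A exceeded TRA2B by 1.62 times in growing, 1.63 in early, 3.01 in late and 1.27 in OIS. PTBP1 exceeded PTBP2 by 23.5 times in growing, 16.8 in early, 21.8 in late and 37.3 in OIS. All hnRNP, PTB and PCBP loci together held 4.53 times the FPKM of the SR and TRA2 genes in growing, 4.07 in early, 3.302 in late and 3.40 in OIS. The SR sum in OIS includes the 164 FPKM of SRSF5, and the hnRNP sum includes the loci joined with AXL and RPL36A, and in early the class medians given above lie in the other order, with the SR class lower.

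Other genes of the splicing pathway also lay mostly below growing in late, with 52 of 57 core spliceosome genes, 35 of 47 other splicing regulators and 8 of 10 kinases and importers of SR proteins, beside 35 of the 38 members. In early these counts were 49, 38 and 7, and in OIS 38, 36 and 5. Of all compared genes 53.8% lay below growing in late, 52.7% in early and 47.8% in OIS, so the 5 of 10 in OIS was close to that share. The medians of these 3 lists in late, given below, were further from 0 than the -0.23 of the SR and TRA2 genes. For the 2-fold counts that follow, 8.17% of all compared genes fell in OIS, 5.47% in late and 3.96% in early. The shares that rose were 9.13%, 3.51% and 1.40% in that order. Of 10 compared kinases and importers of SR proteins 1 rose in OIS and 0 fell (median -0.0084), and 0 changed by 2-fold in late (median -0.30) or early (median -0.10). SRPK1, the cytoplasmic kinase that primes SR proteins for import, rose 2.21-fold in OIS, from 21.1 to 47.8 FPKM, and was at 13.9 in late. CLK1, a nuclear SR protein kinase, was 1.76-fold lower in OIS, at 7.82 against 14.5 FPKM, and CLK3 1.72-fold higher, at 31.2 against 17.7.

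Of 57 compared genes of the core spliceosome 1 fell in OIS (median -0.11), 3 in late (median -0.39) and 0 in early (median -0.21), with 0 rising in each. LSM5, a ring protein of the U6 particle, fell 2.46-fold in OIS to 2.88 FPKM, and U2AF1, which reads the AG of the 3′ splice site, was 1.99-fold lower, at 45.3 against 91.0 FPKM. In late LSM2 fell 2.65-fold, SNRPF 2.09-fold and SNRPD1 2.04-fold, which is a share of the 57 genes close to that of all compared genes.

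Among 47 other splicing regulators 3 fell in OIS (median -0.31), 3 fell and 1 rose in late (median -0.29), and 3 fell in early (median -0.22). SFPQ, a paraspeckle protein, fell 2.85-fold in OIS (30.1 against 87.6 FPKM in growing) and 2.09-fold in early. RBMX, also known as hnRNP G, fell 2.58-fold in OIS, 2.70-fold in late and 2.14-fold in early from 73.6 FPKM in growing. KHDRBS3 fell 3.303-fold in late and CELF2 rose 2.46-fold there, to 5.86 FPKM. Of 14 genes of NMD and the exon junction complex 0 changed by 2-fold in OIS, late or early, with medians of -0.14, -0.15 and 0.15.

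The gene models of GENCODE 29 show how many members can make NMD transcripts, a feature that the choice of members did not use. All 13 compared SR and TRA2 genes have at least 1 transcript annotated for NMD, as do 13 of 24 protein-coding hnRNP, PTB and PCBP genes. Together these are 26 of 37 (70.3%), against 43.4% of 10394 compared protein-coding genes. A retained intron is annotated for 25 members (67.6%, against 58.6%). A locus FPKM adds all transcripts, so productive and NMD transcripts cannot be told apart here, and the members have a median of 11 annotated transcripts against 8.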

How the data were processed

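Poly(A) RNA of 4 IMR90 libraries, 1 per group, was sequenced by the authors. The deposited values are FPKM, 1 per locus and library, and per the submitters' processing notes TopHat2 2.0.3, Bowtie2, Cufflinks 2.1.1 and hg19 were used, with no role or order given. The sources used here do not give the strand setting, the handling of fragments with several map positions or any normalization across libraries. The header line of each file names growing and another group, so samples were taken from the record that ties files to samples.

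The 2310 loci without a gene name (47.4% to 57.9% of the summed FPKM) were left out. Lines of a symbol were summed, and joined loci were kept under their joined name. Genes that reached an FPKM of 1 anywhere were compared as log2(FPKM + 1) in Python 3.11.15 with pandas 2.3.3, with size rules of 2-fold and 1.5-fold and no test. The members and the gene lists were chosen with earlier results of these data known. Members that were at least 1.5-fold from growing, or between late and early, and the 3 highest by mean were named with their values. All 4 libraries are given for them, except that HNRNPAB, HNRNPL and the joined HNRNPH2 locus are given with ranges. From each related list up to 4 genes with the largest differences were named. Values for further members are given too. The values of 1 gene counted in a related list are not reported here. Alternatives were another pseudocount, 2 other filters, 3 rescalings, the highest of several lines, joined loci left out and genes listed at 0 left out. Depth is unknown, and the relative depths come from loci below 0.1 FPKM, of which 2.68% to 12.6% lay at the most common ratio, so they are rough.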

Additional observations from a re-analysis of the deposited data

How the results depend on the processing

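Of 145 counts and medians recomputed under alternatives, 126 were unchanged, where a count may differ by up to 1.5 times and a median by less than 0.1. With the 1.5-fold size rule, members lower were 22 in OIS, 19 in H3.3cs1 late and 22 in H3.3cs1 early against growing and 6 in OIS against late, and members higher were 2 in late against early and 2 in OIS against late. With named genes at the same sum the counts became 0 higher in OIS and 0 lower in early, both against growing, and 5 lower in OIS against late. The medians then became -0.95 for OIS and -0.37 for early against growing, -0.25 for late against early and -0.23 for OIS against late. Over all compared genes they were -0.16, 0.19, -0.26 and -0.11 in that order. Quantile normalization gave 0 members lower in early, and medians of -0.89 for OIS and -0.44 for early against growing, -0.26 for late against early and -0.11 for OIS against late. Leaving out joined loci gave 2 members lower in early, since 2 of the 4 are joined. No alternative reversed a 2-fold difference of any of the 29 named members, while 10 of 1258 recomputed values dropped under 2-fold and 14 passed it. Among these 1258 values 29 changed sign, each from a difference under 2-fold. No paired analysis was possible because each group has 1 library, and for the same reason no library could be left out. Depth limits the low members, such as PTBP2, SRSF8 and HNRNPA1L2, below 5 FPKM.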

Other observations

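Relatives of the members that carry other symbols in these files were measured as well. HNRPDL, an hnRNP D-like gene, was at 43.8 FPKM in growing cells, 30.1 at day 3, 32.3 at day 13 and 28.4 in OIS, and HNRPLL, an hnRNP L-like gene, was at 15.3, 14.96, 10.6 and 12.7 in this order. Both were highest in growing, as many members were, and neither reached 2-fold. PCBP4, a relative of PCBP1, was at 46.0 FPKM in growing cells, 37.8 at day 3, 60.4 at day 13 and 31.1 in OIS, and so was highest in late. PTBP3, joined with MIR3134, was highest in OIS, at 10.3 FPKM against 6.96 in growing, 7.96 in early and 8.13 in late, whereas PTBP1 and PTBP2 were highest in growing.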
